A study of Arabidopsis thaliana with 12 samples.

Results

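Cpn60beta4 (AT1G26230) and NTRC (AT2G41680) are nuclear genes of Arabidopsis thaliana whose proteins work in the chloroplast stroma. Both were chosen by name, as genes measured by a probe that the platform annotation lists for exactly 1 gene. They are 2 of the 689 genes that could be named in this way. Each had 1 such probe, so no choice between probes was needed.

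Transcript levels were read from total RNA on a single-channel array. There were 6 readings of the toc90 mutant in ecotype Columbia 0, and 6 readings of the wild type (WT) in the same ecotype. Both groups are numbered 1 to 6. Per the labels, protein import across the outer chloroplast envelope is impaired in toc90. The sources used here give neither the mutant allele, the tissue, the age of the plants nor how they were grown. Nothing says that the readings came from separate plants, so every p-value below reflects only the spread among these readings, which may be technical. TOC90 itself was not analysed here, so its level was not used to check the labels.

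Most chloroplast proteins are made in the cytosol as precursors and enter through the TOC complex of the outer envelope, of which Toc90 is a GTPase of the Toc159 receptor family. Once inside, many are folded by the plastid chaperonin, a barrel built of Cpn60 alpha and beta subunits. Cpn60beta4 is a minor, specialised beta subunit that is needed for folding NdhH, a subunit of the NDH complex, which carries cyclic electron flow around photosystem I. NTRC joins an NADPH-thioredoxin reductase and a thioredoxin in 1 polypeptide. It uses NADPH to keep 2-Cys peroxiredoxins and several enzymes of chlorophyll and starch synthesis reduced, beside the light-driven ferredoxin-thioredoxin system.

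Values are array intensities on a scale from 0 to 100 whose construction the sources used here do not give. The whole table held 3439 probes, and the groups differed before any gene was compared. The share of probes listed at 0 averaged 26.6% ± 5.37 in toc90 and 15.2% ± 1.63 in WT (SD, n = 6 each). The median of a reading averaged 0.0619 ± 0.00363 in toc90 and 0.154 ± 0.00262 in WT, while the mean of a reading was 0.851 ± 0.162 in toc90 and 0.865 ± 0.126 in WT. Within a group, readings of neighbouring numbers (1 and 2, 3 and 4, 5 and 6) tended to deviate together. Their deviations, over 1474 probes, correlated at -0.08 to 0.35 in toc90 and 0.43 to 0.52 in WT. Results are therefore also given with neighbouring numbers averaged, which leaves 3 values against 3. The number of arrays limits the precision.

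NTRC was brighter than most probes, between percentiles 75.2 and 86.7 of its reading, and its deposited values did not differ between the groups beyond their spread. They were 0.409, 0.453, 0.497, 0.557, 0.642 and 0.605 in toc90 readings 1 to 6, against 0.596, 0.573, 0.487, 0.517, 0.356 and 0.384 in WT readings 1 to 6. The groups overlapped widely, although 2 of the 6 toc90 readings lay above every WT reading and none lay below every WT reading. The means were 0.527 ± 0.09 in toc90 and 0.486 ± 0.0982 in WT (SD, n = 6 each). The difference of 0.0417 ± 0.0544 (SE) was smaller than the spread of either group and did not pass a two-sided exact permutation test over all assignments of the 12 readings (p = 0.452, and 0.604 after Benjamini-Hochberg adjustment over the 2 genes).

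Most of the spread of NTRC lay between pairs of neighbouring numbers and not within them. The 2 readings of a pair differed by at most 0.0598 in toc90 and at most 0.03 in WT. The pair means were 0.431, 0.527 and 0.624 in toc90 for numbers 1 and 2, 3 and 4, and 5 and 6, against 0.585, 0.502 and 0.37 in WT. The difference between toc90 and WT was thus -0.154 for numbers 1 and 2, 0.025 for 3 and 4, and 0.254 for 5 and 6. With neighbouring numbers averaged, the exact permutation p was 0.6, where 0.1 is the smallest that 3 against 3 can give.

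Cpn60beta4 was a dim probe, and its deposited values did not differ between the groups beyond their spread. Toc90 readings 1 to 6 had 0.0484, 0.0414, 0.13, 0.00401, 0.0371 and 0.0505, against 0.0594, 0.0474, 0.0291, 0.0186, 0.0406 and 0.0382 in WT readings 1 to 6. None of the 12 values was a listed 0. Numbers 3 and 4 of toc90 were the highest and the lowest of all readings and lay 32.5-fold apart. The other 5 pairs of neighbouring numbers, 2 in toc90 and 3 in WT, lay between 1.06-fold and 1.56-fold apart. The means were 0.0519 ± 0.0419 in toc90 and 0.0389 ± 0.0142 in WT (SD, n = 6 each), a difference of 0.0131 ± 0.0181 (SE, two-sided exact permutation p = 0.604, and 0.604 adjusted over the 2 genes). Leaving out reading 3 of toc90 turned the difference to -0.00261, and leaving out reading 4 of toc90 gave 0.0227 (exact permutation p = 0.184).

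The place of each gene within its own reading differed between the groups. As a percentile among the 3439 probes of a reading, Cpn60beta4 stood at 46.3, 43.3, 62.6, 34.6, 41.4 and 45.6 in toc90 readings 1 to 6, against 27.4, 24.3, 22.4, 20.6, 19.9 and 19.2 in WT readings 1 to 6. The groups did not overlap, with all 6 toc90 readings above every WT reading. The mean percentile was 45.6 ± 9.3 in toc90 and 22.3 ± 3.12 in WT (SD, n = 6 each), a difference of 23.3 (two-sided exact permutation p = 0.00216, and 0.00433 adjusted over the 2 genes). The use of percentiles was chosen after the values had been seen. Of all probes, 12.7% had percentiles without overlap and higher in toc90, a share that includes all 274 probes at 0 in every WT reading, since a 0 ranks higher where there are more zeros. Without those probes it was 5.15%. Of all probes, 1.4% had deposited values without overlap and higher in toc90.

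Listed zeros enter these percentiles. In toc90 the share of zeros ran from 20.3% to 33.4%, so a probe slightly above 0 already stood above them, as Cpn60beta4 did in reading 4 with a value of 0.00401 at percentile 34.6. Among the 204 probes with a WT mean above 0.025 and up to 0.05, the range that holds Cpn60beta4, 48.9% of the values were at 0 in toc90 and 13.7% in WT. The median percentile difference of those probes was 7.98, and 4 of them (1.96%), Cpn60beta4 included, stood higher in all toc90 readings. The part of these zeros in the percentile of Cpn60beta4 was not tested.

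NTRC stood at percentiles 83.5, 84.2, 83.1, 84.2, 86.7 and 86.2 in toc90 readings 1 to 6, against 83.5, 83.2, 77.7, 78.4, 75.2 and 77.1 in WT readings 1 to 6. In toc90, 5 of 6 readings lay above every WT reading, and the groups overlapped through the WT readings of numbers 1 and 2. The mean percentile was 84.6 ± 1.45 in toc90 and 79.2 ± 3.38 in WT (SD, n = 6 each), a difference of 5.47 (two-sided exact permutation p = 0.00866, and 0.00866 adjusted over the 2 genes). Among the 371 probes with a WT mean above 0.4 and up to 0.8, the range that holds NTRC, the median percentile difference was -1.7. Of those probes, 7.82% had all toc90 percentiles above every WT percentile, and NTRC was not among them. With neighbouring numbers averaged, the exact permutation p of the percentile difference was 0.1 for both genes, the smallest that this design allows.

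**Figure D1:**
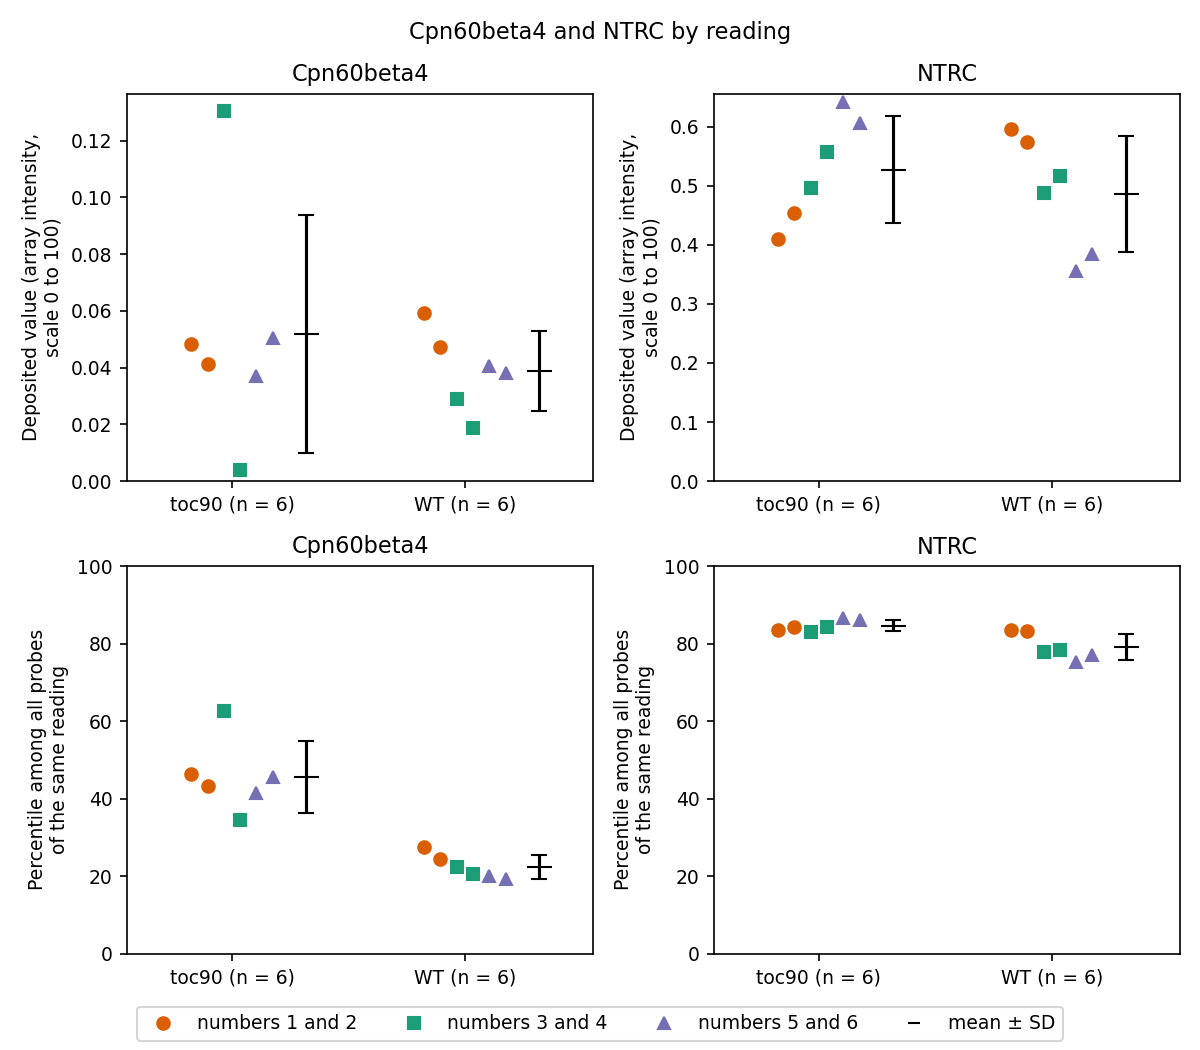
Deposited array intensity (upper row, scale 0 to 100) and percentile among the 3439 probes of the same reading (lower row) for Cpn60beta4 and NTRC in 6 toc90 and 6 WT readings, with marks by pair of neighbouring numbers and bars for the mean ± SD. The groups overlap in deposited values for both genes, and the percentiles of Cpn60beta4, 34.6 to 62.6 in toc90 and 19.2 to 27.4 in WT, do not.

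The comparison across all probes asked which transcripts differ in toc90. It used log2 values with zeros as missing, quantile normalized between readings, and limma. Of 2687 probes tested, 23.9% were called at a Benjamini-Hochberg adjusted p under 0.05, 6.92% higher and 17% lower in toc90. Neither Cpn60beta4 nor NTRC was among them, a count of 0 of 2, and neither had an unadjusted p under 0.05 in limma (0.102 and 0.178).

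The log2 difference of Cpn60beta4, toc90 minus WT, was 1.17 ± 0.66 (SE, 95% confidence interval -0.27 to 2.60, limma adjusted p = 0.222). Its SE was above the median of 0.35 for all tested probes. Without reading 4 of toc90 the difference was 1.80 ± 0.31 and was called (limma adjusted p = 0.00262), and without numbers 3 and 4 of toc90 it was 1.61 ± 0.30 (adjusted p = 0.00448). Leaving out any other single reading gave no call. Probes called higher made up 6.81% of those tested without reading 4 of toc90, and 8% without numbers 3 and 4 of toc90.

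The log2 difference of NTRC was 0.29 ± 0.21 (SE, 95% confidence interval -0.15 to 0.74, limma adjusted p = 0.324), which leaves both a small fall and a rise of up to 0.74 within the interval. No single reading decided it, since leaving out each in turn gave 0.21 to 0.39 with adjusted p of 0.215 to 0.492. Of the tested probes, 26.7% had a larger difference than NTRC and 7.56% a larger one than Cpn60beta4.

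The median log2 difference of the tested probes changed with their level. It was 1.23 for the 135 tested probes with a WT mean above 0.025 and up to 0.05, close to the 1.17 of Cpn60beta4, which lies in that range, but the fit leaves out zeros. Over all 204 probes of the range, zeros included, the median log2 ratio of the deposited group means was -0.59, against 0.42 for Cpn60beta4. It was -0.41 for the 364 tested probes with a WT mean above 0.4 and up to 0.8, the range that holds NTRC at 0.29. Zeros included, the median log2 ratio of the deposited group means in that range was -0.55 over 371 probes, against 0.12 for NTRC. Over all tested probes the median was -0.21, and relative to it Cpn60beta4 stood at 1.37 and NTRC at 0.50. In the numbering of the array in blocks of 96 probe IDs, taken in runs of 3, the probe of Cpn60beta4 lies in the second place, where the median was -0.41, and that of NTRC in the first, where it was -0.04. Quantile normalization within each place gave 1.37 for Cpn60beta4 (limma adjusted p = 0.164) and 0.14 for NTRC (0.635).

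**Figure D2:**
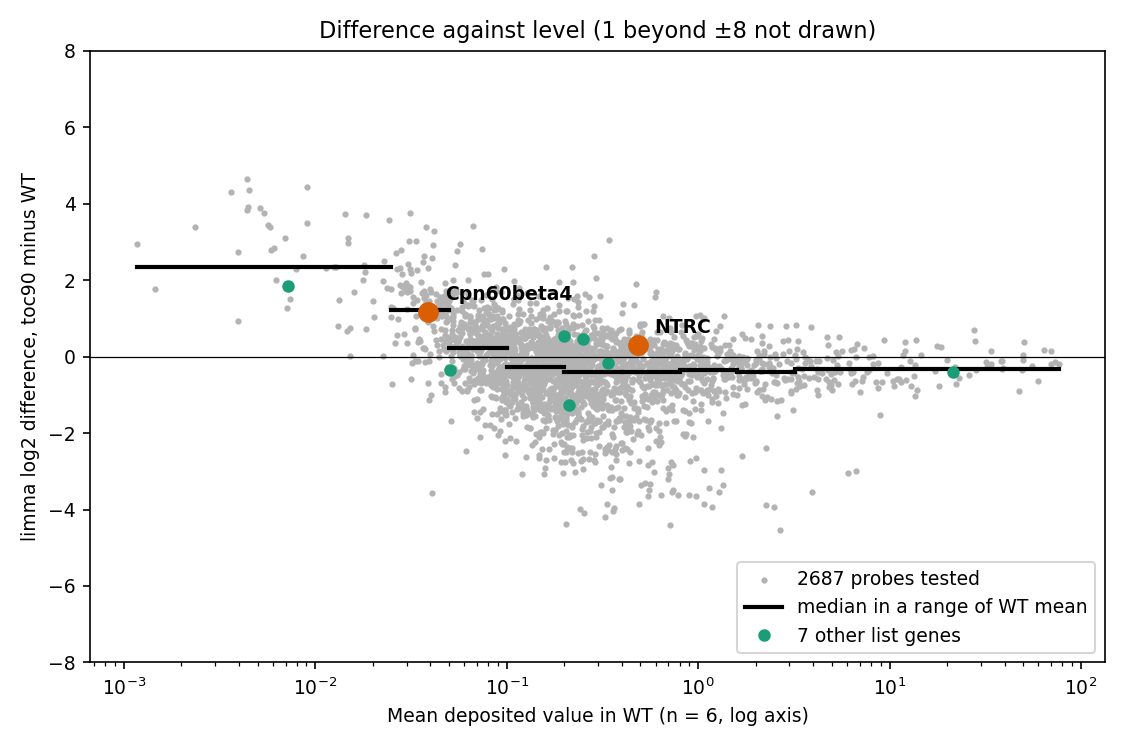
The limma log2 difference, toc90 minus WT, of the 2687 tested probes against their mean deposited value in WT (log axis), with the 7 other list genes in green and black lines for the median within ranges of the WT mean; 1 probe beyond 8 in log2 is not drawn. With zeros left out, Cpn60beta4 lies on the median of 1.23 for the 135 tested of 204 probes of its level, and NTRC at 0.29 lies above the median of -0.41 for probes of its level.

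Whether the genes were called depended on the scaling and on the zeros. With values as deposited, zeros left out, the difference of Cpn60beta4 was -0.04 (limma adjusted p = 0.963) and that of NTRC 0.13 (0.64). With median scaling NTRC was called higher in toc90, at 0.82 ± 0.23 (SE, limma adjusted p = 0.0173), and Cpn60beta4 was not, at 0.65 ± 0.71 (0.529). In that setting 16% of all tested probes were called higher. An offset of 0.0274 before log2, with zeros kept, gave calls for both, at 1.34 ± 0.21 for Cpn60beta4 (limma adjusted p = 0.001) and 0.55 ± 0.17 for NTRC (0.0372), where 8.26% of all probes were called higher. Cpn60beta4 was also called at 2.15 without the 25% dimmest probes (limma adjusted p = 0.0107, 7.39% called higher) and at 7.04 with each 0 replaced by the table's lowest positive value (0.000292, 4.13% called higher). In that last setting its WT percentiles of 19.2 to 27.4 fell among ranks filled by zeros in toc90, where zeros took 20.3% to 33.4% of a reading. With neighbouring numbers averaged, where 3.76% of all tested probes were called, neither gene was (limma adjusted p = 0.232 for Cpn60beta4 and 0.613 for NTRC).

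**Figure D3:**
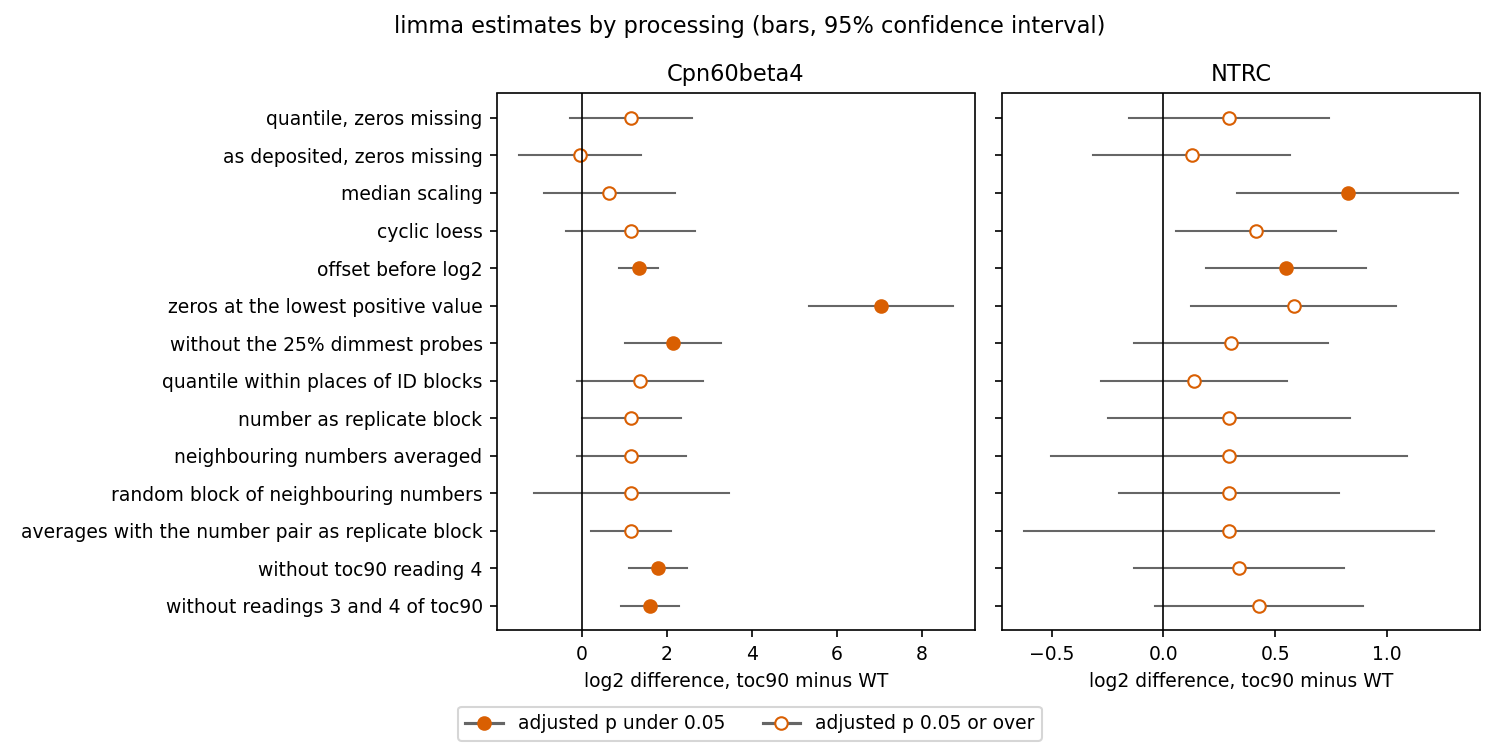
The limma log2 difference, toc90 minus WT, of Cpn60beta4 (left) and NTRC (right) in the quantile-normalized fit, under 12 alternatives and without reading 4 of toc90, with 95% confidence intervals as bars and filled points where the adjusted p was under 0.05. Cpn60beta4 runs from -0.04 to 7.04 and NTRC from 0.13 to 0.82.

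The genes were also compared within each reading. The log2 ratio of NTRC to Cpn60beta4, with the offset added to both, was 2.53, 2.81, 1.73, 4.22, 3.38 and 3.02 in toc90 readings 1 to 6, against 2.85, 3.01, 3.19, 3.56, 2.50 and 2.65 in WT readings 1 to 6. Every WT value lay inside the range of toc90, whose extremes were numbers 3 and 4. The mean was 2.95 ± 0.83 in toc90 and 2.96 ± 0.39 in WT (SD, n = 6 each), a difference of -0.01 ± 0.38 (SE, two-sided exact permutation p = 0.972). A difference in response between the genes was not detected at this spread. Neither gene had a 0, and the ratio without an offset, which does not depend on the scale of a reading, gave a difference of 0.17 (exact permutation p = 0.851). With quantile normalization, zeros kept, the same difference was -0.79 (exact permutation p = 0.00216), that is, a larger difference of toc90 from WT for Cpn60beta4 on that scale. Quantile normalization rests on ranks, and the median percentile difference was 7.98 for probes at the level of Cpn60beta4 and -1.7 for those at the level of NTRC. How often other probes of these 2 levels give such a difference was not tested. The p-value treats neighbouring numbers as separate readings.

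The relatives of the genes were described from 5 lists. The lists held plastid chaperonins, other plastid chaperones, and thioredoxin reductases with plastid thioredoxins. They also held plastid peroxiredoxins together with proteins reported as NTRC targets, and NDH subunits with assembly factors. Of their 68 genes, 9 were on a single-gene probe, Cpn60beta4 and NTRC included, and all 9 were tested. Limma called 0 of the 9 higher and 1 lower, against 6.92% and 17% of all tested probes. Their median log2 difference was 0.29, which is the value of NTRC itself, against -0.21 for all tested probes. Beside Cpn60beta4 and NTRC, the list genes described below lay on both sides of -0.21, from -1.27 (CRR21) to 1.84 (NdhN).

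Cpn60beta3, another beta subunit of the plastid chaperonin, had 0.346, 0.345, 0.31, 0.447, 0.166 and 0.0814 in toc90 readings 1 to 6, against 0.263, 0.211, 0.235, 0.254, 0.327 and 0.214 in WT readings 1 to 6. Numbers 5 and 6 of toc90 were the lowest values, and 3 of the other toc90 readings lay above every WT reading. Its log2 difference was 0.47 ± 0.30 (SE, limma adjusted p = 0.29), and it was not called in any of 12 alternatives.

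AT2G04700 encodes the catalytic subunit of ferredoxin-thioredoxin reductase, the light-driven counterpart of NTRC. It had 0.121, 0.182, 0.247, 0.33, 0.174 and 0.13 in toc90 readings 1 to 6, against 0.202, 0.175, 0.215, 0.0979, 0.254 and 0.252 in WT readings 1 to 6. The groups overlapped, and the log2 difference of 0.53 ± 0.29 (SE, limma adjusted p = 0.2) did not pass. As a percentile within its reading, AT2G04700 stood 13.2 higher in toc90 (two-sided exact permutation p = 0.013, unadjusted), against 5.47 for NTRC, a brighter probe. The median percentile difference was -2.67 for the 721 probes with a WT mean above 0.1 and up to 0.2, its range. Its deposited mean in toc90 was 0.991 of that in WT (two-sided exact permutation p = 0.944, unadjusted). How many of all probes reach such a percentile p was not tested.

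In the list of plastid peroxiredoxins together with proteins reported as NTRC targets, CHLM averaged 0.248 ± 0.102 in toc90 and 0.339 ± 0.0603 in WT (SD, n = 6 each). CHLM is the methyltransferase of magnesium-protoporphyrin in chlorophyll synthesis. Its log2 difference was -0.17 ± 0.22 (SE, limma adjusted p = 0.616). AT3G52960, which encodes the plastid peroxiredoxin of type II, had 0.0474, 0, 0.0389, 0.00236, 0.0253 and 0 in toc90 readings 1 to 6, against 0.0455, 0.0719, 0.0495, 0.0158, 0.0481 and 0.0725 in WT readings 1 to 6. All 6 toc90 values lay below the WT mean, but the log2 difference, which leaves out both zeros, was -0.35 ± 0.89 (SE, limma adjusted p = 0.807), and it turned to 0.78 without reading 4 of toc90. With zeros included, the deposited mean in toc90 was 0.376 of that in WT (two-sided exact permutation p = 0.0325, unadjusted). That is a log2 ratio of -1.41. The median log2 ratio was -1.07 for the 495 probes with a WT mean above 0.05 and up to 0.1, the range that holds AT3G52960. Of the toc90 values in that range, 33.6% were at 0. Of the 7 list genes beside Cpn60beta4 and NTRC, CRR21 also had an unadjusted exact permutation p under 0.05 on deposited values, at 0.00216. Both genes were lower in toc90, the direction in which 19.9% of all probes had deposited values without overlap. How many of all probes pass this permutation test was not tested.

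CRR21 was the called gene of the lists. It encodes a pentatricopeptide repeat protein needed for editing of the ndhD transcript of the NDH complex, the complex that also depends on Cpn60beta4. It had 0.03, 0.0431, 0.0961, 0, 0.0729 and 0.0253 in toc90 readings 1 to 6, against 0.191, 0.192, 0.203, 0.264, 0.213 and 0.202 in WT readings 1 to 6. The groups did not overlap, which held for 19.9% of all probes in this direction. CRR21 fell by 1.27 ± 0.27 on the log2 scale (SE, limma adjusted p = 0.00657), with 1 toc90 reading at 0 left out. The call held in each of the 12 fits that left out 1 reading and was lost in 5 of 11 other alternatives. These were each 0 replaced by the lowest positive value (limma adjusted p = 0.302), an offset (0.0563), neighbouring numbers averaged (0.0858), neighbouring numbers as a random block (0.0702), and those averages blocked by their number pair (0.123).

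Neither NDH subunit on a single-gene probe passed the test. NdhS, the subunit at which ferredoxin binds, was among the brightest probes, with 21.2 ± 3.89 in toc90 and 21.4 ± 3.59 in WT (SD, n = 6 each). Its log2 difference was -0.39 ± 0.17 (SE, limma adjusted p = 0.116), and with median scaling it turned to 0.68 and was called (0.00691). NdhN lay near 0, with 3 of 6 readings at 0 in each group, and its log2 difference of 1.84 ± 0.86 (SE, limma adjusted p = 0.178) rests on the other 3 readings of each group. A higher percentile in toc90 was not particular to Cpn60beta4 and NTRC among the list genes. Beside AT2G04700, the percentile difference was 12.4 for NdhN, 9.6 for Cpn60beta3, 4.7 for AT3G52960, 1.31 for CHLM, -0.063 for NdhS and -19.1 for CRR21.

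**Figure D4:**
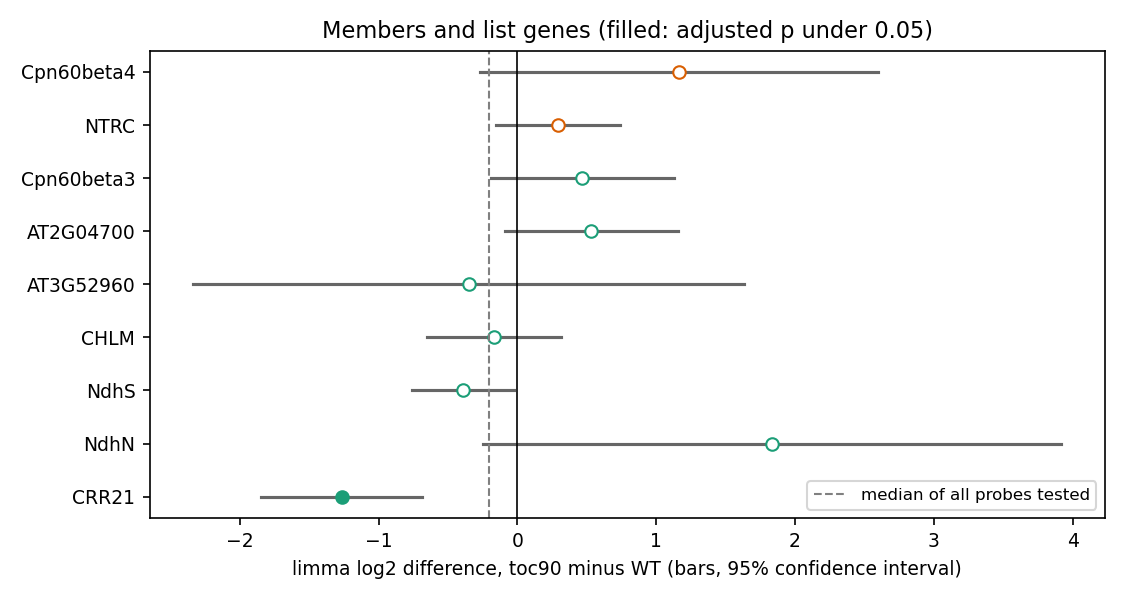
The limma log2 difference, toc90 minus WT, with 95% confidence intervals as bars for Cpn60beta4, NTRC and the 7 other list genes on single-gene probes, with a dashed line at the median of all tested probes (-0.21). CRR21 at -1.27 is the 1 filled point, with an adjusted p under 0.05.

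The genes with the most similar pattern were found by Pearson's r over the 12 readings, on log2 values with the offset, quantile normalized with zeros kept, among single-gene probes at or above the median level. For Cpn60beta4, among 337 candidates, these were AT1G31220 (r = 0.942), AGL26 (0.926) and AT1G17160 (0.924). Cpn60beta4 itself lay below that level, so no probe as dim as it was a candidate. AT1G31220 encodes an enzyme of purine synthesis. Its mean deposited value was 0.231 ± 0.0725 in toc90 and 0.133 ± 0.0174 in WT (SD, n = 6 each), and within groups its r with Cpn60beta4 was 0.632 in toc90 and 0.8 in WT. AGL26 followed Cpn60beta4 at 0.9 within toc90 and 0.441 within WT.

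For NTRC, among 336 candidates, they were AT4G29890 (r = 0.873), AT1G65090 (0.858) and AT4G13550 (0.839). AT4G29890 averaged 2.71 ± 0.611 in toc90 and 2.37 ± 0.51 in WT (SD, n = 6 each), with r of 0.656 within toc90 and 0.972 within WT. These values describe the highest of all the candidates, and the readings behind them share arrays, neighbouring numbers and the step between the groups.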

How the data were processed

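The deposited table holds array intensity on a scale from 0 to 100. The sources used here do not give how the authors scanned, background-corrected or scaled it, nor a genome build. Groups and numbers come from the sample titles. Genes were named through the platform annotation, with symbols updated from RefSeq (assembly TAIR10.1). Of 3439 probes, 692 had 1 gene, 870 had several and 1877 are unnamed here.

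For the fit, zeros were set to missing, and log2 values were quantile normalized. The moderated two-sided test of limma 3.58.1 (R 4.3.3) was run on the 2687 probes with at least 3 values in each group. Deposited values with zeros included were compared with exact permutation tests over all assignments of the 12 readings, in Python 3.11.15. The offset of 0.0274 is the 10th percentile of all positive values. The gene lists were described by counts, and named genes were both members, all list genes on a single-gene probe and the 3 closest patterns of each member. Both tests were tested on simulated data. The members, lists and tests were chosen with earlier results of these data known. Same-numbered readings of the groups correlated at 0.08 to 0.25, not all over 0.1, and the main tests did not pair them. However, all 12 readings correlated best with their own number in the other group, so a shared effect of the number is possible. Fits with the number as a replicate block are therefore given below.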

Additional observations from a re-analysis of the deposited data

Results flagged for a closer look

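Of 18 sets of 6 readings, for 9 genes in both groups, 3 had a reading far from the others, where chance gives about 1 in 20. For Cpn60beta4 it was reading 3 of toc90, at 0.13, with the nearest toc90 reading at 0.0505. For NdhN it was reading 4 of toc90, at 0.0809, with the nearest at 0.013. For CRR21 it was reading 4 of WT, at 0.264, with the nearest at 0.213. The 2 flagged toc90 readings belong to the number pair 3 and 4, which correlated least among the pairs (-0.08). In the log2 fit of Cpn60beta4, reading 4 of toc90, at 0.00401, mattered more than reading 3. The limma adjusted p was 0.222 with all readings, 0.00262 without reading 4 of toc90 and 0.362 without reading 3 of toc90.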

How the results depend on the processing

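Chosen after seeing the data were the percentiles, the ratio with no offset, the random block, the averages blocked by their number pair, and the fits without readings 3 and 4 of toc90. The cause of a change was not tested unless stated. Calls over all probes numbered 643 (28.9% of them higher in toc90). They were 353 with cyclic loess (51% higher, of 1474 tested), 981 with values as deposited (8.66%), 258 with zeros at the lowest positive value (55%), 106 with neighbouring numbers averaged, 277 with a random block of neighbouring numbers, and 475 to 620 with each reading left out. The share of higher calls was 56% with median scaling and 46% with an offset. The number as a replicate block gave 418 calls, with 12 of 12 readings correlating best with their own number, while neighbouring averages with their number pair for a replicate block gave limma 0 calls (551 probes at an unadjusted p under 0.05). Neither replicate block called Cpn60beta4 or NTRC.

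The log2 difference of Cpn60beta4 (1.17, limma adjusted p = 0.222) was -0.045 as deposited and was called at 1.34 with an offset, 2.15 without the dimmest probes, 7.04 with zeros at the lowest value above 0, and 1.61 without readings 3 and 4 of toc90. With each reading left out it ran from 0.89 to 1.80, called only without reading 4 of toc90. That of NTRC (0.29) was called at 0.82 with median scaling and 0.55 with an offset, and ran from 0.21 to 0.39 with each reading left out. The difference of deposited means passed the exact permutation test when divided by the column median, at 0.561 column medians for Cpn60beta4 (p = 0.0173) and 5.39 for NTRC (p = 0.00216), and as percentiles, at 23.3 and 5.47. Column medians averaged 0.0619 in toc90 and 0.154 in WT, so dividing by them raises toc90 values relative to WT. How many of all probes pass after that division was not tested. Divided by the column mean, the difference was 0.0136 for Cpn60beta4 (two-sided exact permutation p = 0.494), which did not pass. For NTRC it was 0.0709 (two-sided exact permutation p = 0.446), which did not pass either. With each reading left out, the undivided difference ran from -0.00261 (without reading 3 of toc90) to 0.0227 for Cpn60beta4. For NTRC the undivided difference ran from 0.0157 to 0.0654. The difference of the log2 ratio of NTRC to Cpn60beta4 (-0.01) was 0.17 with no offset, 0.0053 with the offset multiplied by 0.5, -0.79 with quantile normalization, and -0.27 to 0.23 with each reading left out. Its sign turned in 5 of those fits, without toc90 readings 1 (0.07), 2 (0.02) or 3 (0.23) or WT readings 3 (0.04) or 4 (0.11).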
